A study of Mus musculus with 18 samples.

Results

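The effect of deleting G9a in plasma cells was read from 6 libraries of mouse spleen, out of 18 in the series, chosen by their cell type and genotype labels and not by any measured value. The 3 KO libraries (replicates 1, 3 and 4) came from mice with loxP-flanked alleles of the G9a gene and 1 copy of a Cre driver of the B lineage. The 3 Ctrl libraries (replicates 1, 3 and 4) came from mice with the same Cre driver, also heterozygous, and no loxP-flanked G9a allele in the label. Both groups therefore carried Cre, which acts across the whole B lineage and not in plasma cells alone, so the cells had been able to lose G9a well before they became plasma cells. All of these mice had been injected in the tail vein with 50 µg of lipopolysaccharide (LPS), a bacterial cell wall product that drives B cells to secrete antibody, and spleens were taken 72 h later. Plasma cells were sorted as live CD138+ cells with intermediate or low B220 that lacked F4/80, Cd11b and Thy1.2. Each library was amplified from 1000 cells. Ages are not in the labels, and neither is whether each replicate was its own mouse; the p-values below therefore cover only the spread between these libraries. For comparison, KO and Ctrl libraries of activated B cells from the same LPS protocol were used (3 each). Naive B cells serve only to show levels. No LPS dose or time is listed for them, so LPS and cell type cannot be told apart in those levels.

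G9a, encoded by Ehmt2, is a methyltransferase that works with its partner GLP to place the mono- and dimethyl marks on lysine 9 of histone H3, which are found over silent chromatin. The marks are read by repressor proteins, and loss of G9a in other cell types is known to release germline and lineage-foreign genes. Plasma cells are end-stage B cells that shut down much of the B cell program under Prdm1 (Blimp-1) and Irf4, enlarge the endoplasmic reticulum (ER) through Xbp1, and give most of their protein synthesis over to antibody.

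Of 12960 genes with a value, 9830 were tested, those whose mean scaled RPKM (reads normalized to gene length and to sequencing depth, here with a further scaling factor per library) reached 1 in KO or Ctrl. In KO plasma cells 444 genes were higher, 4.52% of those tested, and 390 were lower, 3.97% (limma, Benjamini-Hochberg adjusted p under 0.05). Most changes were small. The median log2 difference, on log2(scaled RPKM + 1), was 0.57 among the genes that rose, -0.42 among those that fell and 0.01 over all genes tested, and only 78 rose and 18 fell by at least 1. More of the genes that rose were weakly expressed in Ctrl. Of them 42.8% had a Ctrl mean under 5, against 7.69% of the genes that fell and 28.6% of all tested. The median Ctrl level was 6.69 among those that rose and 41.1 among those that fell. The filter shapes this contrast, since a gene with a Ctrl mean under 1 reached testing only through KO. Among the genes that rose, 53 were of that kind, so these levels describe the lists and support nothing. KO and Ctrl libraries did not overlap for any of the 834 called genes (8.48% of those tested), which was also true of 29.9% of all tested genes.

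**Figure D1:**
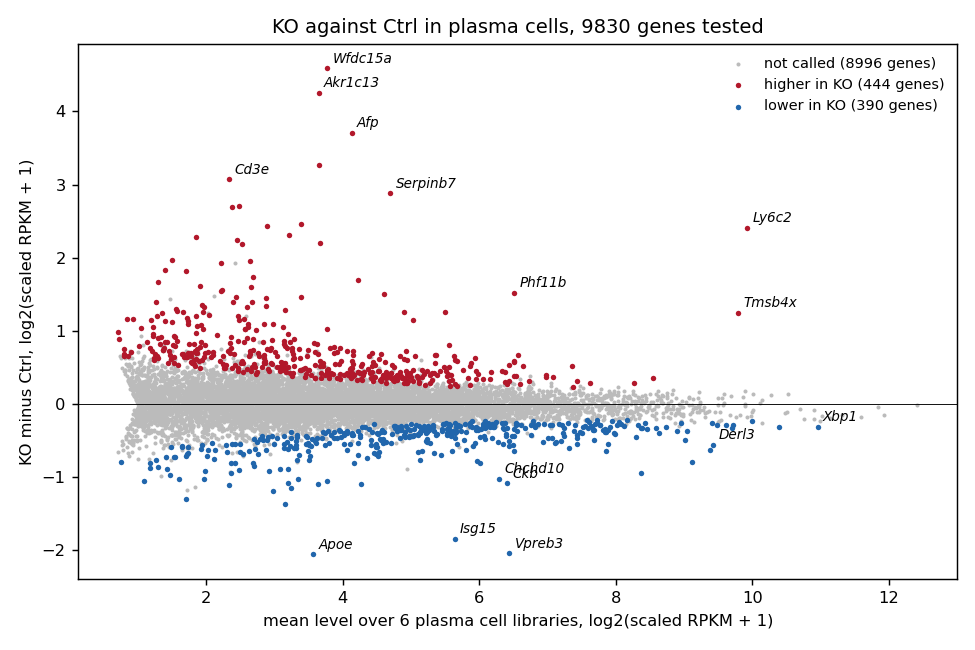
Each point is a gene tested in plasma cells, placed by its mean level over the 6 libraries (x axis) and its KO minus Ctrl difference (y axis), both on log2(scaled RPKM + 1). The 444 genes higher in KO reach a difference of 4.59 (Wfdc15a), while the 390 lower genes are mostly well expressed and end at -2.06 (Apoe).

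These counts depend on how many libraries are used. Without KO 1 they were 178 higher and 133 lower, without KO 4 251 and 198, without Ctrl 1 258 and 198, and without KO 3 the number higher was 268. With RPKM as deposited, unscaled, 534 genes were higher and 307 lower, so that 63.5% of calls were higher, against 53.2% with scaling. Estimated depth was 5.15 to 6.96 M (mega-reads) per library. Replicates correlated across genes at 0.989 to 0.993 and KO with Ctrl libraries at 0.977 to 0.984 (Pearson's r on log2 values, as a description).

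The 6 libraries carried the plasma cell label well: Jchain, which joins antibody polymers, stood at 5158, 5819 and 5386 in KO and 5190, 5732 and 5609 in Ctrl, while Pax5, a gene of earlier B cells, stayed below 1 in every library. Library KO 4 differed from the others in some marker genes of other cells. Its macrophage genes Vcam1, C1qc, Csf1r and Adgre1 stood at 12.2, 9.77, 5.89 and 5.09, and its globin genes Hbb-bs and Hba-a2 at 24.7 and 17.4, whereas none of these 6 genes passed 1.0 in KO 1 or KO 3. In Ctrl these genes ran from 0 to 2.11. The macrophage genes C1qa and C1qb were also highest in KO 4, at 5.99 and 6.83, with 1.58 and 3.38 in Ctrl 4. Lyz2 and Cd68 did not set KO 4 apart. Lyz2 had 0.993, 4.81 and 7.4 in KO and 4.64, 3.14 and 9.7 in Ctrl. Cd68 had 16.1, 12.1 and 16.7 in KO and 8.68, 12.5 and 9.46 in Ctrl. Summed macrophage markers ran from 19.8 to 70.7 in KO and from 15.3 to 29.4 in Ctrl, and summed erythroid markers from 6.03 to 58.2 in KO and from 1.82 to 2.09 in Ctrl. None of the 8 macrophage markers tested was called, and of 4 erythroid markers tested only the carbonic anhydrase gene Car2 was. Of 3 NK cell and 3 neutrophil markers with a value, none reached the level for testing.

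Ehmt2 itself (chr17:34898463-34914073, plus strand, GRCm38) had 13.7, 11.5 and 13.3 scaled RPKM in KO and 16.2, 14.8 and 16.3 in Ctrl. Every KO library was below every Ctrl library, but the difference of -0.28 (SE 0.10) did not pass the test (limma adjusted p = 0.105). RPKM is summed over the whole gene and cannot be divided by exon, so these values do not check whether the loxP-flanked part was deleted.

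The largest rises were of genes with almost no signal in Ctrl plasma cells. The promoter windows of the 3 leading genes are shown, from RefSeq on GRCm38.p6, because these genes were near silent in Ctrl and clearly expressed in KO; each runs 250 bases before to 50 after the annotated start, with CpG dinucleotides in capitals. Wfdc15a lies at chr2:164200068-164200367 on the minus strand, Akr1c13 at chr13:4190937-4191236 on the plus strand and Afp at chr5:90490464-90490763 on the plus strand.
Wfdc15a: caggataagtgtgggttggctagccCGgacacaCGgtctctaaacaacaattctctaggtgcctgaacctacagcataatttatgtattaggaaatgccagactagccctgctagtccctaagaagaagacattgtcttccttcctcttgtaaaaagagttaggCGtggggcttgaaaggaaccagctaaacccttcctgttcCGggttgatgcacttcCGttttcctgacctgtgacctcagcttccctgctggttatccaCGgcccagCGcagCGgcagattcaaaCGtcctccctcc
Akr1c13: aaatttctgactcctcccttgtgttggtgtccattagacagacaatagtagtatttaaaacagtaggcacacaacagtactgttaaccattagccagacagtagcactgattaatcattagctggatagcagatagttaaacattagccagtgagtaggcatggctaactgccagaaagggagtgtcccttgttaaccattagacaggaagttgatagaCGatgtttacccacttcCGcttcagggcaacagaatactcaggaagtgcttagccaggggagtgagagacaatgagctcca
Afp: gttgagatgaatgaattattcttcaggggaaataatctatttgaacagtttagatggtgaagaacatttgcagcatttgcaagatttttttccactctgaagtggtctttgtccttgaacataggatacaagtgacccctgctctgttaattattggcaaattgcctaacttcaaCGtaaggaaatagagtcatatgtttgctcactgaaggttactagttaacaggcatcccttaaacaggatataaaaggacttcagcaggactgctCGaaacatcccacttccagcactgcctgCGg
The windows hold 9, 2 and 3 CpGs in that order. Among 39 genes higher in KO with a Ctrl mean under 1 and a window in RefSeq, the median was 6 CpGs, against 12 in the 201 tested genes with such low Ctrl levels, 16 in all 359 higher genes with a window and 21 in all 7969 tested genes with one. Genes with a Ctrl mean under 1 reached testing only through KO, so these medians describe the windows and support nothing.

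Wfdc15a, a member of the whey acidic protein family of small secreted proteins, had 24.8, 25.5 and 25.8 in KO, against 0.310 in Ctrl 1 and a listed 0 in Ctrl 3 and Ctrl 4. The 3 KO libraries lay close together (25.35 ± 0.518 in KO and 0.103 ± 0.179 in Ctrl, SD, n = 3 each; log2 difference 4.59, SE 0.14, adjusted p = 2.3e-08). Akr1c13, an aldo-keto reductase, had 23.37, 24.02 and 21.06 in KO, against 0.703, 0.128 and 0 in Ctrl (4.26, SE 0.18, adjusted p = 2.8e-07). Afp, alpha-fetoprotein, the albumin-like serum protein of fetal liver, had 33.5, 33.97 and 27.43 in KO, against 1.04, 2.04 and 1.48 in Ctrl (3.71, SE 0.15, adjusted p = 2.1e-07). With 1 scaling over all 18 libraries, Afp had 35.7, 36.3 and 29.3 in KO plasma cells and 10.5, 1.71 and 8.18 in Ctrl naive cells. Of the 444 genes that rose, 53 had a Ctrl mean under 1. Gtsf1, a germline factor of the piRNA pathway chosen here after its values were seen, was at 4.98, 6.53 and 3.43 in KO and at 0, 0 and 0.710 in Ctrl (2.29, SE 0.25, adjusted p = 3.5e-04).

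The genes with the next largest rises included receptors and adaptors, which are described singly and are no tested group. Cd3e, a signalling chain of the T cell receptor complex, had 6.68, 8.14 and 9.43 in KO and 0.1002, 0.1101 and 0 in Ctrl (3.08, SE 0.16, adjusted p = 1.0e-06). With 1 scaling over all 18 libraries, Cd3e had 7.13, 8.69 and 10.1 in KO plasma cells and 6.97, 0 and 1.6 in Ctrl naive cells. Of the other T cell markers with a value, Cd8b1 rose and Lck was not called, while Cd4 and Il7r were too low to test. Cd4 was at or under 0.1 in every library, Il7r ran from 0.135 to 0.389 in KO and from 0.196 to 0.581 in Ctrl, and Lck had 0.845, 1.62 and 1.83 in KO and 1.00, 1.88 and 1.47 in Ctrl. Cd8b1, a chain of the CD8 coreceptor, had 1.91, 4.39 and 2.42 in KO and 0.408, 1.00 and 0.845 in Ctrl (1.12, adjusted p = 0.016), a call lost without Ctrl 1 (adjusted p = 0.061). The 5 T cell markers with a value, of 13 listed, summed to 9.64 to 14.4 in KO and 1.81 to 3.35 in Ctrl, most of it Cd3e in KO; the part of T cells in these values was not tested.

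Sh2d1b1, a SLAM-family adaptor, had 18.8, 15.7 and 15.8 in KO and 2.72, 1.54 and 2.50 in Ctrl (2.46, SE 0.15, adjusted p = 4.0e-06). Clec2g, a C-type lectin, averaged 8.07 ± 1.64 in KO and 0.920 ± 0.356 in Ctrl (2.24). Mrc1, the mannose receptor of macrophages, chosen here after its values were seen, had 23.5, 28.1 and 30.9 in KO and 6.86, 8.43 and 8.07 in Ctrl (1.69, SE 0.12, adjusted p = 9.2e-06). Mrc1 kept its call when any library was left out, KO 4 included; the part of macrophages in its level was not tested. Besides these, Serpinb7, a serine protease inhibitor, averaged 44.8 ± 5.23 in KO and 5.22 ± 0.745 in Ctrl (2.88, SE 0.12), Mamdc2 19.9 ± 2.71 in KO and 3.57 ± 0.789 in Ctrl (2.20), and the bitter taste receptor gene Tas2r126 8.47 ± 1.44 in KO and 1.10 ± 0.539 in Ctrl (2.19). With 1 scaling over all 18 libraries, Tas2r126 had 10.5, 9.11 and 7.47 in KO plasma cells. On that scale it had 8.74, 9.48 and 5.22 in Ctrl naive cells and 2.17, 4.5 and 0 in KO naive cells.

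Among 20 checkpoint and regulatory molecules tested, 3 rose and 2 fell, against 4.52% and 3.97% of all tested genes. Tigit, an inhibitory receptor, had 119.6, 105.1 and 123.2 in KO and 67.4, 70.5 and 79.9 in Ctrl (0.67, adjusted p = 0.0010). Il10ra, a chain of the interleukin-10 receptor, had 4.03, 4.13 and 5.29 in KO and 0.800, 1.40 and 1.75 in Ctrl (1.26, adjusted p = 0.0020), and Pdcd1, which encodes PD-1, had 11.9, 24.9 and 15.8 in KO and 8.45, 6.38 and 8.59 in Ctrl (1.02, adjusted p = 0.015). The 2 that fell were Il6st, the shared signalling chain of interleukin-6 family receptors, at 16.9 ± 0.936 in KO and 26 ± 2.15 in Ctrl (-0.59), and Vsir, a B7-family immune checkpoint; the number lower was 1 without KO 1, KO 3, KO 4 or Ctrl 1.

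**Figure D2:**
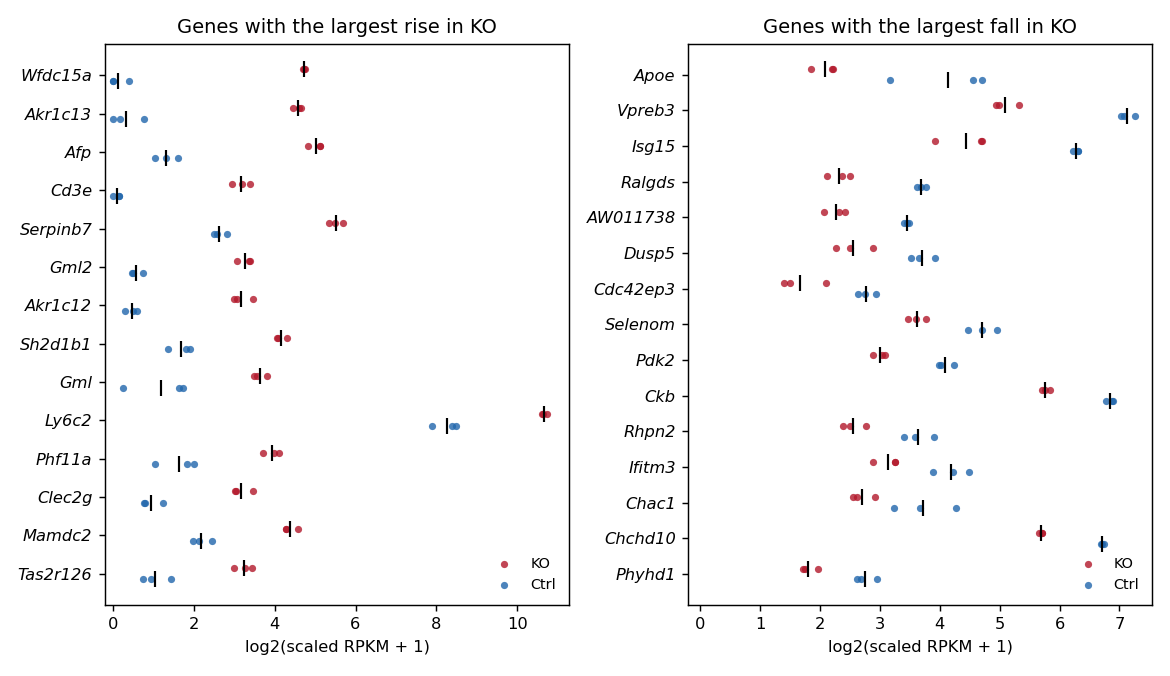
Level of 14 of the 15 genes with the largest rise (left) and of the 15 with the largest fall (right) in each plasma cell library, on log2(scaled RPKM + 1); each point is a library, bars are group means, and points are offset vertically only to separate KO from Ctrl. The 29 genes drawn were chosen for the size of their change among genes whose groups do not overlap, so the gap between groups follows from the choice. The Ctrl points of Wfdc15a, Akr1c13 and Cd3e sit at or near 0.

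Germline genes, a class that G9a is known to silence in embryonic stem cells, were mostly too low to test. Of 66 listed, 25 had a value and 9 were tested; 5 rose and none fell, with a median of 0.79 over the 9, but those 9 include genes that reached testing only through KO, so this count describes them and supports nothing. Beside Wfdc15a the genes that rose included Piwil2, a piRNA-binding Argonaute protein. Piwil2 had 4.03, 4.68 and 5.09 in KO and 0.705, 1.64 and 1.46 in Ctrl (1.32, limma adjusted p = 0.0016). With 1 scaling over all 18 libraries it had 4.3, 5 and 5.43 in KO plasma cells. On that scale Piwil2 had 4.17, 2.47 and 4.72 in Ctrl naive cells and 2.53, 1.39 and 1.88 in Ctrl activated cells. Piwil2 was thus detected in Ctrl cells of both other types. Tuba3b, a testis tubulin, had 2.49, 2.65 and 2.68 in KO and 0.369, 0.806 and 0.436 in Ctrl (1.24, limma adjusted p = 0.0013). The X-linked Xlr4a had 7.68, 12.2 and 11.4 in KO and 5.33, 5.43 and 5.74 in Ctrl (0.79, adjusted p = 0.011), and its near copy Xlr4b also rose, although reads of the pair may be shared.

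Of 31 hepatic genes, 12 had a value and 9 were tested, of which 4 rose and 2 fell; Akr1c13, Akr1c12 and Cyp4f16, with Ctrl means under 1, reached testing only through KO, so the count supports nothing. Afp, Akr1c13, Akr1c12 and Cyp4f16, a fatty acid hydroxylase of the cytochrome P450 family, rose, the last with 5.69, 7.01 and 6.41 in KO and 1.04, 0.684 and 1.11 in Ctrl (1.92, adjusted p = 2.5e-05). Apoe, the lipid-carrying apolipoprotein, and Ephx1, an epoxide hydrolase, fell; the number lower was 1 without KO 1, KO 4 or Ctrl 1. The erythroid and kidney enzyme gene Car2 rose too, with 7.04, 4.84 and 6.29 in KO and 1.77, 1.23 and 1.15 in Ctrl (1.56, adjusted p = 2.9e-04). Summed erythroid markers, of which Car2 is one, are given above, and their part in this rise was not tested.

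Genes of the Ly6 and Gml cluster, small lipid-anchored surface proteins of chromosome 15, held the highest-expressed of the strong rises. Ly6c2, a surface antigen that marks plasma cells and monocytes, had 1571, 1719 and 1592 in KO, against 332.8, 359.8 and 236.2 in Ctrl (2.41, SE 0.13, adjusted p = 1.3e-06). Ly6c1 had 44.6, 46.2 and 41.9 in KO and 20.4, 20.4 and 17.4 in Ctrl (1.15). The pair are near-identical copies, so the split of reads between them is uncertain, but both moved the same way. Gml2 had 7.43, 9.22 and 9.46 in KO and 0.377, 0.412 and 0.669 in Ctrl (2.71), and Gml had 10.2, 13.1 and 10.9 in KO and 2.10, 0.176 and 2.29 in Ctrl (2.43). These 4 were the members that rose among the 9 tested of 19 listed; the median over the 9 was 0.15, and none of the other 5 was called. Gml2 reached testing only through KO, so this count too is a description.

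Some genes that rose were neighbours. Counting tested genes in order along each chromosome, 34 runs of adjacent genes rose together, holding 80 genes or 18% of those that rose, and 27 runs fell, holding 59 genes or 15.1% of those that fell. No chance rate for such runs was computed. On chromosome 13 Akr1c13, Akr1c12 and Akr1e1, all aldo-keto reductases, were followed by Klf6 and Pitrm1; Akr1c12 had 7.31, 9.95 and 6.97 in KO and 0.235, 0.513 and 0.416 in Ctrl (2.70), and Akr1e1 averaged 6.96 ± 0.928 in KO and 1.91 ± 0.603 in Ctrl (1.47). The calls of Klf6 and Pitrm1 were lost without some libraries (adjusted p up to 0.173 for Klf6 and 0.156 for Pitrm1). On chromosome 14, Phf11a and Phf11b, zinc finger genes induced by interferon, lay within 103 kb with Gm6904, whose call was also lost (adjusted p up to 0.0953). Phf11b had 140.2, 142.6 and 121.9 in KO and 49.5, 42.1 and 47.3 in Ctrl (1.52, SE 0.08, adjusted p = 1.7e-06), and Phf11a had 16.2, 14.9 and 12.1 in KO and 1.07, 2.56 and 3.03 in Ctrl (2.31).

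On the X chromosome Tmsb4x, Tlr7 and Prps2 lay within 176 kb. Tmsb4x, thymosin beta-4, which binds free actin, was an abundant transcript at 1171, 1366 and 1194 in KO and 480.8, 563.5 and 521.2 in Ctrl (1.25, SE 0.08, adjusted p = 5.2e-06). Prps2, a nucleotide synthesis enzyme, averaged 36.2 ± 1.44 in KO and 23.6 ± 1.00 in Ctrl (0.60), and Tlr7, the endosomal sensor of single-stranded RNA, 10.98 ± 1.987 in KO and 6.09 ± 1.42 in Ctrl (0.76), a call lost without Ctrl 1, KO 3 or KO 4 (adjusted p up to 0.062). Over the X, 22 of 311 tested genes rose (7.07%) and 7 fell (2.25%), against 4.52% and 3.97% of all tested genes. Chromosomes 19, 1 and 6 had like shares of rises, at 7.26%, 6.74% and 6.67%. On chromosome 17 Cyp4f39 and Cyp4f17 rose beside Cyp4f16, with the call of Cyp4f17 lost when any library was left out (adjusted p up to 0.174). On chromosome 6 Zyx and the olfactory receptor gene Olfr456 flanked Tas2r126; Olfr456 averaged 4.64 ± 0.548 in KO and 0.849 ± 0.115 in Ctrl (1.61), and Zyx lost its call without KO 3 or KO 4 (adjusted p up to 0.0535).

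Well expressed genes that fell included members of the secretory pathway. The unfolded protein response is the stress program that scales the ER to its load. Of 51 tested genes of ER folding and this response, 17 fell, against 3.97% of all tested genes, and none rose. A difference below 0 was found in 47 of the 51, against 4718 of all 9830 genes tested. The median was -0.16, and summed RPKM ran from 24500 to 26400 in KO and from 28700 to 29700 in Ctrl. Derl3, part of the channel that carries misfolded proteins out of the ER, had 551.2, 580.4 and 544.1 in KO and 812.4, 807.3 and 840.2 in Ctrl (-0.55, SE 0.06, adjusted p = 3.2e-04). Herpud1, an ER membrane scaffold of the same degradation route, had 487.4, 545.7 and 536.2 in KO and 801.7, 745.7 and 886.1 in Ctrl (-0.63, adjusted p = 7.8e-04). Sel1l, the adaptor of the HRD1 ubiquitin ligase, had 186.4, 193.2 and 192.7 in KO and 292.6, 256.8 and 290.1 in Ctrl (-0.55), and Dnajb9, a co-chaperone, averaged 113.7 ± 9.83 in KO and 163.6 ± 8.05 in Ctrl (-0.52). The main ER chaperone gene Hspa5 (BiP) had 1858, 2293 and 2157 in KO and 2375, 2318 and 2504 in Ctrl and did not pass the test (-0.19, adjusted p = 0.18). The number lower was 7 without KO 1, 8 without KO 4 and 9 without Ctrl 1.

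The ER stress element ERSE (CCAAT and CCACG separated by 9 bases) and its variant ERSE-II (ATTGG and CCACG separated by 1 base), the motifs read by the stress factors ATF6 and XBP1, were searched on both strands of the same 300-base windows. ERSE was in 5 of 15 fallen ER genes with a window (33.3%), namely Creld2, Derl3, Dnajc3, Ero1lb and Syvn1. It was in 5 of 29 ER genes with a window that were not called (17.2%) and in 0.213% of all 7969 tested genes with one. Counted by window and not by gene, ERSE was in 0.119% of all 32851 windows. ERSE-II was in 0.037% of all windows, among them Herpud1 and Krtcap2. The windows of Derl3 (chr10:75893148-75893447, plus strand; ERSE on the opposite strand) and Herpud1 (chr8:94386179-94386478, plus strand) are shown with the motif in capitals, chosen after their values were seen as well expressed genes that fell. A match is a description of the letters and was not tested for use.
Derl3: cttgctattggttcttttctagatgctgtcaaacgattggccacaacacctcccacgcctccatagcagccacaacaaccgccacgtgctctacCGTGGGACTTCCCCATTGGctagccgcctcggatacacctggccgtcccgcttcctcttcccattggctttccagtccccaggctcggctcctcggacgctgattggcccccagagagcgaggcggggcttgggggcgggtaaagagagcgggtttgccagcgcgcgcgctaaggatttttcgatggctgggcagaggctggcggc
Herpud1: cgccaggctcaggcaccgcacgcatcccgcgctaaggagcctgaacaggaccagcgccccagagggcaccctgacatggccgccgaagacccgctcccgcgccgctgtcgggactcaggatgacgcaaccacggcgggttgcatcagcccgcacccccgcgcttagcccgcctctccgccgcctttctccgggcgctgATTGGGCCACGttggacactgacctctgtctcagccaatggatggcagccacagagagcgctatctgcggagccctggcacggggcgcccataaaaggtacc

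The next steps of secretion were covered by a further list. Of 75 tested genes of translocation, glycosylation and vesicle transport, 17 fell, against 3.97% of all tested genes, and none rose. A difference below 0 was found in 69, against 4718 of all 9830 genes tested, and the median was -0.14. Kdelr3, a receptor that returns proteins to the ER, had 14.2, 12.9 and 12.9 in KO and 21.8, 22.9 and 22 in Ctrl (-0.70, adjusted p = 7.4e-04), and Sec24a, a cargo-selecting subunit of the COPII coat, had 18.97, 19.21 and 20.14 in KO and 27.9, 27.3 and 29.3 in Ctrl (-0.51, adjusted p = 0.0027). Lman1, a cargo receptor for glycoproteins, averaged 249.2 ± 10.7 in KO and 307.7 ± 3.90 in Ctrl (-0.30), and lost its call without KO 1 or KO 4 (adjusted p up to 0.072). The number lower was 3 without KO 1, 4 without KO 4 and 6 without Ctrl 1. The neighbours Srp54a and Srp54b, near copies of a signal recognition particle subunit, both fell. In bulk RNA of this kind, fewer cells of a type and less RNA of these genes per cell cannot be told apart.

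The identity genes of plasma cells divided. Of 42 tested, 12 fell and 3 rose, against 3.97% and 4.52% of all tested genes, with a median of -0.13. Without KO 1 the number lower was 7, and without KO 4 it was 7. The transcription factors Prdm1 and Irf4 overlapped between groups: Prdm1 had 94.5, 94.8 and 86.5 in KO and 99.6, 93.9 and 90.1 in Ctrl (-0.04, adjusted p = 0.77), and Irf4 had 167.6, 166.8 and 171.4 in KO and 171.9, 152.1 and 178.4 in Ctrl (0.01, adjusted p = 0.94). Xbp1 had 1658, 1889 and 1775 in KO and 2082, 2412 and 2114 in Ctrl (-0.31, adjusted p = 0.035), a call lost without KO 1, KO 4, Ctrl 1 or Ctrl 3 (adjusted p up to 0.166). Tnfrsf17 (BCMA), the survival receptor for APRIL, had 69.8, 70.3 and 69.3 in KO and 97.0, 126.4 and 106.9 in Ctrl (-0.64, adjusted p = 0.0017). Hid1, a protein of secretory granule maturation, averaged 125.4 ± 4.46 in KO and 191.4 ± 6.99 in Ctrl (-0.61, adjusted p = 2.4e-04). Sdc1, whose product CD138 was the sort marker, had 135.3, 129.9 and 125.5 in KO and 149.3, 171.7 and 150.6 in Ctrl (-0.27, adjusted p = 0.043), a call that was lost whichever library was left out (adjusted p up to 0.135). The 3 that rose were Ly6c2, Ly6c1 and Chst1, a sulfotransferase, with 55.2, 60.5 and 74.0 in KO and 26.6, 26.8 and 23.7 in Ctrl (1.26, adjusted p = 5.1e-05).

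Of 37 tested autophagy and lysosome genes 11 fell, against 3.97% of all tested genes, and none rose; 26 were not called, 9 had a difference above 0, and the median was -0.15. Lgmn, a lysosomal endopeptidase, had 112.1, 113.0 and 109.3 in KO and 158.6, 149.5 and 155.8 in Ctrl (-0.47, adjusted p = 0.0011). Wipi1, a phosphoinositide-binding autophagy protein, averaged 7.40 ± 0.556 in KO and 13.4 ± 2.28 in Ctrl (-0.77), and Map1lc3a, a form of the autophagosome marker LC3, 12.1 ± 0.397 in KO and 19.3 ± 2.68 in Ctrl (-0.62). Sqstm1, Ctsa, Map1lc3b, Ctsd, Lamp2, Gabarap and Atg13 fell too.

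Antigen presentation was covered by a list for each MHC class, and most members of both were not called. Of 20 tested genes of MHC class I and peptide loading, 6 fell, against 3.97% of all tested genes, and none rose. Without KO 1, KO 4, Ctrl 1 or Ctrl 3 the number lower was 3. Tapbp (tapasin), which edits peptides on class I molecules, had 185.2, 189.1 and 167.4 in KO and 277.0, 289.2 and 282.6 in Ctrl (-0.65, SE 0.07, adjusted p = 2.2e-04), and Tap2, a subunit of the peptide transporter, averaged 92.0 ± 6.50 in KO and 123.1 ± 6.01 in Ctrl (-0.42, adjusted p = 0.0065). Of 14 class II genes, 3 fell, H2-Ab1, H2-Aa and H2-Eb1, which form a run of 53.4 kb. H2-Ab1 had 443.4, 454.2 and 391.8 in KO and 569.1, 717.2 and 532.7 in Ctrl (-0.49, adjusted p = 0.018), but without KO 1 or KO 4 none of the class II genes passed. Besides Ehmt2, 77 tested genes lay within 1 Mb of it, the MHC genes named here among them, and 14 of the 77 were called (18.2%, against 8.48% of all tested genes), 12 lower and 2 higher. The labels do not say from which strain the DNA beside the loxP-flanked alleles came. Closest were Dxo, an RNA decapping enzyme gene, and D17H6S56E-5, whose midpoint lies 92458 bases from that of Ehmt2. D17H6S56E-5 had 239.1, 215.5 and 222.8 in KO and 427.3, 426.8 and 451.7 in Ctrl (-0.94, SE 0.06, adjusted p = 7.3e-06). The 2 that rose were Btnl2 and Dhx16. Btnl2, a butyrophilin-like regulator of T cells, had 7.37, 5.66 and 6.77 in KO and 1.86, 2.40 and 1.47 in Ctrl (1.39, adjusted p = 4.4e-04), and Dhx16, an RNA helicase of splicing, averaged 35.4 ± 1.47 in KO and 28.3 ± 2.74 in Ctrl (0.32, adjusted p = 0.043), a call lost in 5 of the 6 fits that left out a library (adjusted p up to 0.129).

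B cell identity genes went both ways: of 38 tested, 6 rose and 3 fell, against 4.52% and 3.97% of all tested genes. Their median was 0.05. The largest fall was of Vpreb3, a protein of early B cells that binds antibody chains during receptor assembly, at 39.1, 30.7 and 29.8 in KO and 134.7, 152.1 and 128.9 in Ctrl (-2.04, SE 0.10, adjusted p = 1.0e-06). Cd79a, the signalling chain of the B cell receptor, had 386.8, 441.0 and 389.8 in KO and 678.5, 810.6 and 637.8 in Ctrl (-0.80, adjusted p = 5.3e-04). Cr2, complement receptor CD21, had 19.4, 20.9 and 22.5 in KO and 11.98, 12.49 and 13.67 in Ctrl (0.68, adjusted p = 0.0017), and Siglecg, an inhibitory lectin, averaged 8.14 ± 0.357 in KO and 4.12 ± 0.922 in Ctrl (0.85). The number higher was 3 without KO 3 or Ctrl 1.

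In antigen receptor signalling, 4 of 34 tested genes rose and 3 fell, against 4.52% and 3.97% of all tested genes. The inhibitory Fc receptor gene Fcgr2b averaged 47.5 ± 3.31 in KO and 71.2 ± 5.99 in Ctrl (-0.57, adjusted p = 0.0021), and the adaptor gene Lat2 32.2 ± 2.45 in KO and 53.1 ± 10.7 in Ctrl (-0.69, adjusted p = 0.0071). Ptpn6, the phosphatase SHP-1, had 40.0, 51.3 and 56.8 in KO and 35.2, 28.7 and 27.9 in Ctrl (0.67, adjusted p = 0.010), and Lyn and Pik3ap1 also rose, although the number higher was 1 without KO 3 or KO 4.

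Interferon-stimulated genes did not share a direction. Of 66 tested, 8 rose and 5 fell, against 4.52% and 3.97% of all tested genes, with a median of 0.03. Without KO 1, KO 3 or Ctrl 1 the number higher was 5, and without KO 1 or KO 4 the number lower was 3. Isg15, a ubiquitin-like modifier, had 24.8, 24.9 and 14.1 in KO and 73.7, 78.1 and 78.0 in Ctrl (-1.84, SE 0.17, adjusted p = 1.0e-04), and AW011738, its neighbour on chromosome 4, averaged 3.82 ± 0.591 in KO and 9.91 ± 0.330 in Ctrl (-1.19). Ifitm3, a membrane protein that restricts virus entry, fell (-1.06), as did Isg20, an exonuclease (-0.46). Ifi27 had 31.6, 38.8 and 34.2 in KO and 10.4, 16.9 and 8.79 in Ctrl (1.51, adjusted p = 7.7e-04), and Phf11b, Phf11a, Gbp6, Ifi211, Sp110, Sp140 and Ifi27l2a also rose. A core of the interferon response element, a pair of GAAA runs separated by 2 bases, was searched on both strands of the promoter windows. Among the group's genes with a window it was in 3 of 5 that rose, 2 of 4 that fell and 22 of 42 not called. The core was in 3.85% of all tested genes with a window and, counted by window, in 3.44% of all windows.

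Growth was covered by a list of ribosome biogenesis genes. Of 65 tested genes of ribosome biogenesis and Myc targets, 14 rose, against 4.52% of all tested genes, and 1 (Gnl3) fell. A difference above 0 was found in 59 of the 65, against 5112 of all genes tested, and the median was 0.19. Without KO 1 the number higher was 5. Myc, the transcription factor that drives this group, had 17.1, 17.7 and 15.4 in KO and 8.21, 9.69 and 10.4 in Ctrl (0.77, SE 0.11, adjusted p = 0.0018). Nop56, a small nucleolar RNA-binding protein, averaged 94.9 ± 3.05 in KO and 70.2 ± 4.81 in Ctrl (0.43), and Rrs1, an assembly factor of the large ribosomal subunit, 28.3 ± 0.332 in KO and 21.2 ± 0.428 in Ctrl (0.40). Of 81 ribosomal protein genes 1 rose, Rpl22l1, a call lost without Ctrl 1 (adjusted p = 0.051), and of 20 aminoacyl-tRNA synthetase genes none was called.

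Cholesterol and fatty acid synthesis, the genes driven by the transcription factor SREBP, rose in 11 of 33 tested, against 4.52% of all tested genes. None fell, 29 had a difference above 0, against 5112 of all 9830 genes tested, and the median was 0.23. Summed RPKM ran from 974 to 1070 in KO and from 826 to 856 in Ctrl. Scd2, a fatty acid desaturase, had 59.1, 60.9 and 56.3 in KO and 33.8, 29.2 and 36.6 in Ctrl (0.81, adjusted p = 3.5e-04). Insig1, the SREBP retention factor, averaged 101.8 ± 6.44 in KO and 70.2 ± 2.67 in Ctrl (0.53). The number higher was 7 without KO 3 or Ctrl 1. Of 11 LXR target and lipid efflux genes, only Apoe was called.

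Cell cycle genes were called about as often as genes in general: of 91 tested, 4 rose, against 4.52% of all tested genes. Of the 91, 78 had a difference above 0, against 5112 of all 9830, and the median was 0.14. Those that rose were Rrm1, Bub1, Pold1 and Racgap1, and E2f1 fell; the number higher was 0 without KO 1, 1 without KO 4, 2 without Ctrl 1 or Ctrl 3 and 7 without KO 3. In glycolysis 2 of 29 rose, Ldha and the lactate transporter gene Slc16a1 (0 without KO 1 and 1 without KO 3), and in the respiratory chain 1 of 75 fell, Ndufs3, a call lost in 5 of the 6 fits that left out a library. Amino acid supply and ATF4 targets fell in 4 of 22 (2 without KO 1), against 3.97% of all tested genes, and rose in 1. Slc3a2, the heavy chain of amino acid exchangers, had 114.5, 130.3 and 116.2 in KO and 165.7, 174.0 and 171.5 in Ctrl (-0.50, limma adjusted p = 0.0016). Asns, asparagine synthetase, averaged 73.4 ± 6.54 in KO and 47.6 ± 9.34 in Ctrl (0.63). The group's Chac1, a glutathione-degrading enzyme, fell (-1.03, adjusted p = 0.016) and lost its call without KO 1 (adjusted p = 0.072).

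The counts of these lists rest on fitting the 6 plasma cell libraries alone with a variance trend. With all 18 libraries fitted together, where the more scattered naive libraries help set the spread, 62 genes in all were higher and 25 lower; of the genes of ER folding 1 was then lower, of translocation and transport 0, of the plasma cell program 0, of autophagy 0 and of MHC class I 1, while 2 ribosome biogenesis genes and 0 cholesterol genes were higher. Without the variance trend the same lists had 6, 2, 6, 8 and 3 lower and 8 and 8 higher. The hepatic list and the Ly6 and Gml cluster each had 4 genes higher in both of these fits.

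Other strong falls belonged to no growth or secretion list. Apoe had 3.57, 2.60 and 3.63 in KO and 22.6, 24.9 and 7.96 in Ctrl (-2.06, SE 0.32, adjusted p = 0.0032); all 3 KO values were below the lowest Ctrl value, that of Ctrl 4. Macrophages also express Apoe, and the part of the macrophage transcripts given above in this difference was not tested. Ckb, brain-type creatine kinase, averaged 53.4 ± 2.42 in KO and 114.3 ± 4.80 in Ctrl (-1.08, SE 0.07, adjusted p = 4.0e-06). Chchd10, a mitochondrial protein whose gene is the neighbour of Vpreb3 on chromosome 10, had 49.4, 51.2 and 51.5 in KO and 103.6, 101.9 and 105.6 in Ctrl (-1.02, SE 0.06, adjusted p = 3.8e-06); its 3 KO values lay within 49.4 to 51.5. Pdk2, a kinase that restrains pyruvate dehydrogenase, averaged 7.01 ± 0.583 in KO and 16.03 ± 1.652 in Ctrl (-1.09), and Ralgds, a Ras effector, 4.04 ± 0.681 in KO and 11.9 ± 0.658 in Ctrl (-1.36). Dusp5 (-1.15), Cdc42ep3 (-1.11), Selenom (-1.09), Rhpn2 (-1.08) and Phyhd1 (-0.95) completed the named falls.

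The machinery of histone and DNA methylation was covered by lists for H3K9 methylation, DNA methylation and Polycomb. Over all tested genes 8.48% were called in either direction. Of 30 tested genes of G9a partners and H3K9 methylation only Zfp518a, a zinc finger gene, was called, with 7.27, 9.48 and 9.79 in KO and 3.23, 3.89 and 3.68 in Ctrl (1.09, SE 0.13, adjusted p = 8.4e-04). Of 15 DNA methylation genes Gadd45b fell (-0.44, adjusted p = 0.026), a call lost without KO 1, KO 4, Ctrl 3 or Ctrl 4 (adjusted p up to 0.091). Of 25 Polycomb genes 1 fell and 1 rose, Ezh2, a histone methyltransferase of Polycomb (0.40), with its call lost in 5 of the 6 fits that left out a library. Of 25 replication-dependent histone genes and 35 proteasome genes none was called.

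The remaining lists are given by their counts, most of which moved by 1 or more when a library was left out. Over all tested genes 4.52% were higher and 3.97% lower. Survival receptors and the BCL2 family had 2 higher and 3 lower of 27, egress and adhesion genes 1 higher (Ccr9) and 3 lower of 26, immediate early genes 1 higher and 2 lower of 17, and Toll-like receptor and NF-kB genes 1 higher and 1 lower of 32. Among the survival genes, the death promoter Bcl2l11 (BIM) averaged 41.1 ± 1.01 in KO and 54.3 ± 2.27 in Ctrl (-0.39, adjusted p = 0.0066). Class switching genes had 2 higher of 21, cyclin-dependent kinase inhibitors and p53 targets 1 higher and 1 lower of 26, nucleic acid sensing genes 1 higher (Tlr7) of 16, and transcription factors of other lineages 1 higher and 1 lower of 7. Among markers of other B cells, Cr2 alone was called of 6 follicular markers tested and Rgs13 alone of 8 activated or germinal centre markers tested. Of 5 dendritic cell markers tested Ccr9 was called, and of 1 platelet marker none.

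The KO effect was then set against that in activated B cells of the same LPS protocol, where 828 of 10067 genes tested were higher in KO (8.22%) and 931 lower (9.25%). Genes that rose in plasma cells also rose in activated cells in 168 cases, 37.8% of the plasma list and 20.3% of the activated list, and 211 fell in both, 54.1% of the plasma list and 22.7% of the activated list. Over genes tested in both, 8.23% rose and 9.16% fell in activated cells. Opposite calls were few, 15 higher in plasma and lower in activated cells and 1 the other way. The difference between the effects, fitted as an interaction over 12 libraries, was positive for 228 of 10391 genes (2.19%) and negative for 49 (0.472%). Of the genes that rose in plasma cells, 83 had a positive interaction and 0 a negative one. Of those that fell, 13 had a negative interaction and 20 a positive one. The number positive was 147 without plasma cell Ctrl 1, 142 without plasma cell KO 3 and 144 without activated Ctrl 4. The number negative was 23 without plasma cell Ctrl 1 or activated Ctrl 4, 29 without plasma cell KO 1, 30 without plasma cell KO 3 and 31 without activated KO 3.

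**Figure D3:**
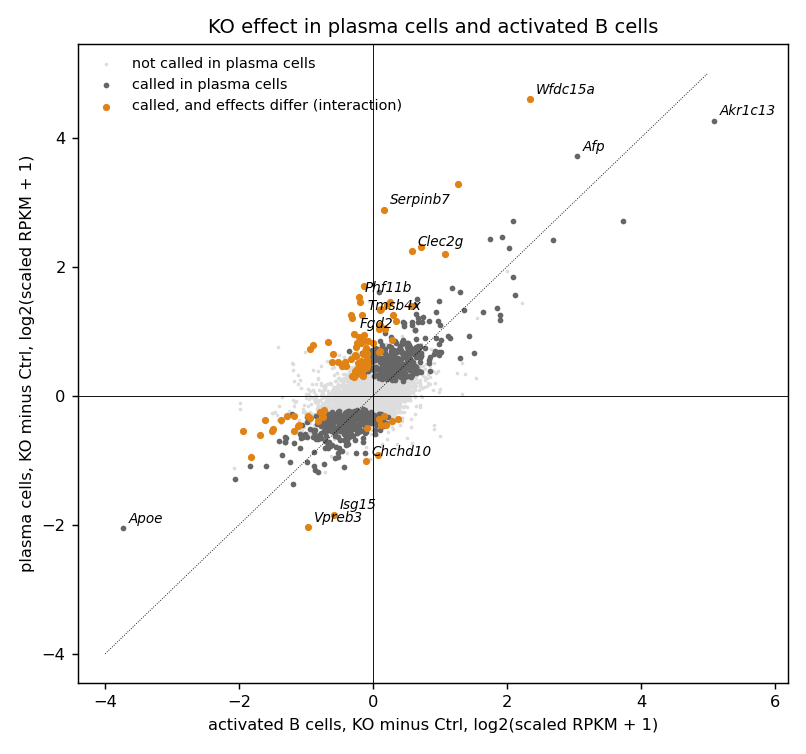
KO minus Ctrl difference in plasma cells (y axis) against that in activated B cells (x axis), both on log2(scaled RPKM + 1), for each gene; orange marks genes called in plasma cells whose 2 effects differ, and the dotted line marks equal effects. Akr1c13 and Afp lie near the line, and Wfdc15a, Clec2g and Serpinb7 lie well above it.

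In the values below all 18 libraries share 1 scaling, so plasma levels differ slightly from those above. Akr1c13 was raised alike in both cell types, at 24.9, 25.6 and 22.5 in KO and 0.760, 0.139 and 0 in Ctrl plasma cells and at 39.4, 36.3 and 41.3 in KO and 0.227, 0.487 and 0 in Ctrl activated cells; the interaction of -0.67 did not pass (adjusted p = 0.21). Wfdc15a had 26.4, 27.2 and 27.6 in KO plasma cells and 2.93, 4.61 and 5.6 in KO activated cells, with 0 to 0.335 in both Ctrl groups, and its interaction was 2.41 (adjusted p = 1.1e-04). Serpinb7 had 42.4, 53.6 and 47.3 in KO and 5.04, 5.37 and 6.55 in Ctrl plasma cells, but only 1.22, 1.14 and 1.06 in KO and 0.446, 1.14 and 1.24 in Ctrl activated cells (interaction 2.73, adjusted p = 1.6e-05). Cd3e was under 0.7 in every activated library of either genotype (interaction 2.84, adjusted p = 1.6e-05).

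Other genes that KO raised in plasma cells are expressed in earlier B cells of either genotype. Tmsb4x had 1250, 1460 and 1280 in KO and 520, 613 and 563 in Ctrl plasma cells, and 2480, 2710 and 2660 in KO and 2920, 2770 and 3100 in Ctrl activated cells (interaction 1.43, adjusted p = 1.6e-05). Phf11b had 149, 152 and 130 in KO and 53.5, 45.7 and 51.1 in Ctrl plasma cells, and 113, 97.8 and 105 in KO and 128, 107 and 129 in Ctrl activated cells (interaction 1.74, adjusted p = 9.9e-06). Ctrl levels of both were thus lower in plasma than in activated cells, and KO plasma cells stood between (Tmsb4x) or above (Phf11b). Fgd2, a guanine nucleotide exchange factor for Cdc42, showed the same order as Tmsb4x at a lower level, with 11.2, 11.8 and 12.5 in KO and 5.26, 6.43 and 5.34 in Ctrl plasma cells, and 140, 140 and 138 in KO and 175, 157 and 177 in Ctrl activated cells (interaction 1.26, adjusted p = 3.2e-05).

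Among the falls, Chchd10 had 52.7, 54.6 and 55.0 in KO and 112, 111 and 114 in Ctrl plasma cells, but 110, 129 and 110 in KO and 120, 133 and 121 in Ctrl activated cells (interaction -0.90, adjusted p = 2.0e-04). Vpreb3 fell in both, further in plasma cells (interaction -1.06, adjusted p = 5.8e-04), and so did Isg15 (-1.25, adjusted p = 0.0053). Some genes of the antibody-secreting program had the opposite sign. Jchain, with no detectable difference between KO and Ctrl plasma cells, had 120, 121 and 135 in KO and 271, 359 and 347 in Ctrl activated cells (interaction 1.36, adjusted p = 1.1e-04). Derl3 had 588, 620 and 581 in KO and 879, 878 and 907 in Ctrl plasma cells, and 45.3, 44.5 and 55.8 in KO and 138, 147 and 133 in Ctrl activated cells, a larger fall (interaction 0.97, adjusted p = 2.3e-04). Of the plasma cell program, 12 of 42 members had a positive interaction, against 2.19% of all genes tested, and 0 a negative one; of the ER folding genes 3 of 51 had a positive one.

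**Figure D4:**
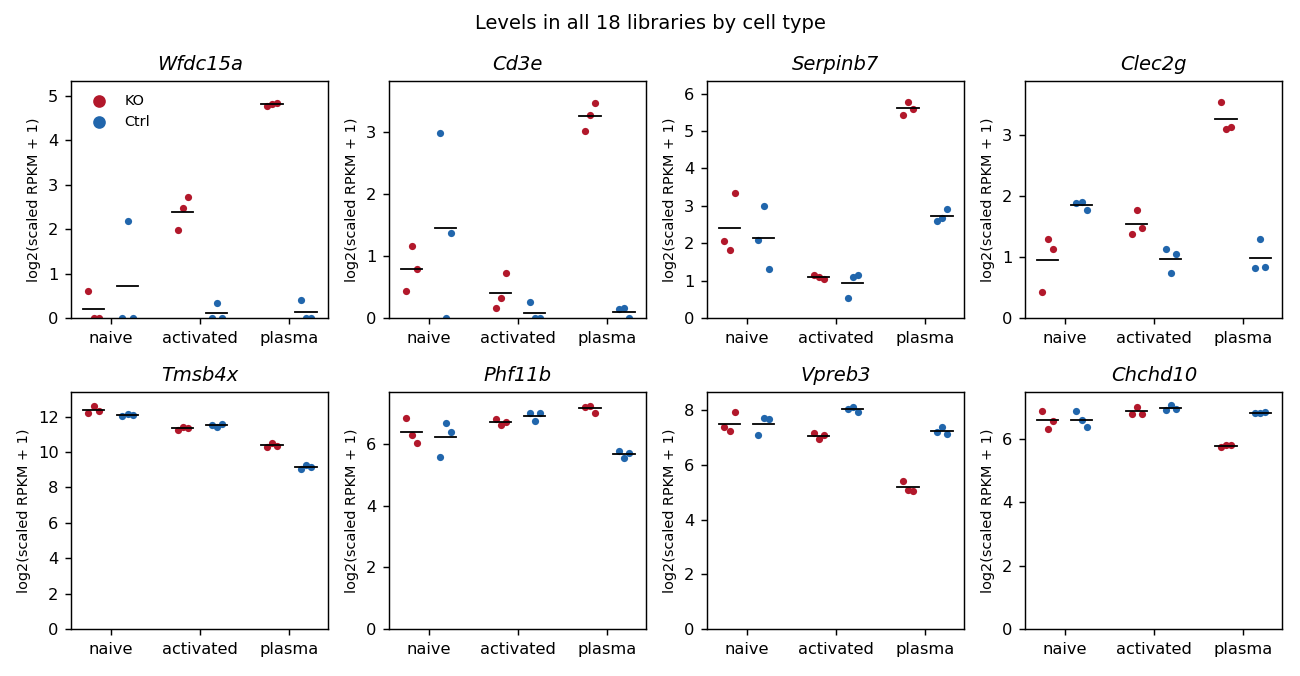
Level of 8 genes in the naive, activated and plasma cell libraries, on log2(scaled RPKM + 1) with 1 scaling over 18 libraries; each point is a library, bars are means, KO is left of Ctrl. Wfdc15a, Cd3e, Serpinb7 and Clec2g are highest in KO plasma cells, and Vpreb3 and Chchd10 lowest there; naive libraries are the most scattered.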

How the data were processed

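The deposited values are RPKM, computed by the authors for 12960 genes in 18 libraries made with SMART-seq v4 and Nextera XT, per the labels' protocols. Per the submitters' processing notes, STAR and the build mm10 were used. For the counting tool, gene models, versions and rule for listing a gene, nothing is given in the sources used here. Read counts were not used, and depth was estimated from the steps between low RPKM values multiplied by transcript length, over 1031 genes with a single transcript (64.5% to 69.0% of scored values in plasma cell libraries lay within 0.1 of a whole read). RPKM was divided by a median-of-ratios factor over 9052 genes above 1 RPKM in all 6 plasma cell libraries (factors 0.985 to 1.019). Genes with a group mean of at least 1 were tested on log2(scaled RPKM + 1), which understates the change of low genes, with limma 3.58.1 in R 4.3.3 (eBayes with trend, two-sided, adjusted p under 0.05). The code was tested on simulated data. Positions and promoters are from RefSeq on GRCm38.p6, matched by Entrez identifier. The genes named were, in each direction, the 15 that changed most with a group mean of at least 5 and no overlap, up to 4 per list by adjusted p, called genes within 1 Mb of Ehmt2, up to 6 runs of neighbours and up to 5 per direction of the interaction; other genes named were chosen after their values were seen, and some genes that the rule picked are not reported here. Members and lists were chosen with earlier results of these data known.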

Additional observations from a re-analysis of the deposited data

Results flagged for a closer look

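Each result here is a KO effect that differed between plasma cells and activated B cells by the interaction test (limma, adjusted p under 0.05 over all genes tested); values are plasma minus activated effects on log2(scaled RPKM + 1). Among the named rises the difference was 2.84 for Cd3e, 2.73 for Serpinb7, 2.57 for Tas2r126, 2.41 for Wfdc15a, 1.73 for Clec2g, 1.63 for Phf11a and 1.18 for Mamdc2. Genes expressed in activated cells of either genotype included Phf11b at 1.74, Tmsb4x at 1.43 and Fgd2 at 1.26. Phf11a was expressed there too, at 32.6, 29.3 and 27.3 in KO and 22.3, 16.6 and 14.8 in Ctrl activated cells (scaled RPKM). Further rises were Mrc1 at 1.83, Il10ra at 1.62, Cyp4f16 at 1.62, Il18 at 1.53, Art4 at 1.5, Cd38 at 1.27, Tuba3b at 1.27, Piwil2 at 1.26, Gimap3 at 1.25, Ifi27l2a at 1.15, Rgs13 at 1.12, Gpr174 at 1.08, Tlr7 at 1.03, Siglecg at 1.01, Hpse at 0.973, Plscr1 at 0.972, Fgl2 at 0.969, P2ry10b at 0.919, Klf6 at 0.875, Btnl2 at 0.86, P2ry10 at 0.831, Ly6c1 at 0.823, Ptpn6 at 0.775, Sp110 at 0.638, Lyn at 0.602, Cr2 at 0.597 and Sp140 at 0.471. Some of these genes were named after their values were seen.

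Genes that fell in plasma cells with a negative difference were Isg15 at -1.25, Vpreb3 at -1.06, Rhpn2 at -1.05, Chchd10 at -0.902, Gnl3 at -0.729, Adk at -0.659 and Slc3a2 at -0.405. Genes whose fall was larger in activated cells gave positive differences: Ephx1 at 1.40, Jchain at 1.36, Hid1 at 1.08, Vsir at 0.979, Derl3 at 0.97, D17H6S56E-5 at 0.878, Prdm1 at 0.82, Xbp1 at 0.669, Lgmn at 0.664 and Isg20 at 0.65. Of these, Jchain and Prdm1 had no call in plasma cells.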

How the results depend on the processing

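In plasma cells the count of genes higher in KO stayed within 1.5 times of 444 under other pseudocounts, filters, scalings and library weights, except with all 18 libraries fitted together (62 higher, 25 lower, with 24 positive and 1 negative interaction). The number lower was 592 with library weights and 190 without the variance trend. Leaving out 1 library gave 178 to 370 higher and 133 to 293 lower; the interaction then gave 142 to 222 positive and 23 to 52 negative genes. No called difference changed its sign, although some uncalled ones near 0, such as those of Irf4, Lck, Hspa5, Jchain and Prdm1, did. With the filter at 5 RPKM more genes were lower (389) than higher (363). Of the 30 genes named for the size of their change, Phf11a, Isg15, Dusp5, Selenom, Ckb, Rhpn2, Ifitm3, Chac1 and Phyhd1 lost their calls with 18 libraries (adjusted p from 0.074 to 0.57); Chac1 also without the trend. Scaling moved the median of all genes from 0.011 to 0.0411 with RPKM as deposited and -0.00973 with quantile normalization. The cause of these shifts was not tested.

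KO and Ctrl libraries share replicate numbers, but nothing in the labels says what a number means. Deviations from the group means correlated at 0.0687, 0.192 and 0.248 for numbers 1, 3 and 4. Each of the 6 libraries correlated best with its own number. The main fits did not use the numbers, and whether they mark a shared batch was not tested. With the replicate number as a block, 597 genes were higher and 555 lower, and 220 interactions were positive and 57 negative.

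Depth of 5.15 to 6.96 M reads (mega-reads) limits genes near 1 RPKM, and 3130 listed genes were too low to test.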

Other observations

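Further genes, named after their values were seen, show other kinds of transcript that changed in KO plasma cells. Fgl2, a secreted fibrinogen-like protein, had 47.1, 41.4 and 35.4 scaled RPKM in KO and 16.54, 15.41 and 17.96 in Ctrl (log2 difference 1.25, limma adjusted p = 5.8e-05). Hpse, heparanase, which cleaves heparan sulfate chains such as those of CD138, had 12.2, 9.66 and 10.6 in KO and 4.57, 4.35 and 5.13 in Ctrl (1.053, adjusted p = 4.9e-04). Gimap3, a lymphocyte GTPase, averaged 9.55 ± 1.83 in KO and 3.13 ± 0.363 in Ctrl (1.34), and Sh2d2a, a T cell adaptor, 8.46 ± 0.129 in KO and 2.21 ± 0.996 in Ctrl (1.60; SD, n = 3 each). Art4, known in humans as the Dombrock blood group protein, had 4.40, 3.48 and 4.32 in KO and 0.363, 0.596 and 0.358 in Ctrl (1.81, adjusted p = 6.2e-05). All 5 kept their calls when any of the 6 libraries was left out.

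On the X chromosome P2ry10, P2ry10b and Gpr174, related receptors for lysophospholipids, form a run of 208 kb that rose together. P2ry10 had 15.22, 16.01 and 12.91 in KO and 6.76, 10.4 and 6.95 in Ctrl (0.82, adjusted p = 0.0084) and kept its call without any library, while P2ry10b (adjusted p up to 0.124) and Gpr174 (up to 0.0968) did not. Among falls, Creb3l1, an ER membrane transcription factor, averaged 0.876 ± 0.274 in KO and 2.67 ± 0.642 in Ctrl (-0.96, adjusted p = 0.011), and Hvcn1, a proton channel of B cells, 4.94 ± 0.471 in KO and 10.1 ± 2.02 in Ctrl (-0.89, adjusted p = 0.0033).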
